A study of Mus musculus with 24 samples.

Results

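The GATA transcription factors of the mouse are encoded by 6 genes, *Gata1* to *Gata6*, and all 6 were measured by calibrated RNA-seq (cRNA-seq) in embryonic stem cells (ESCs) that lose either the Polycomb repressive complex PRC1 or only its catalytic activity. The members were taken by gene symbol from a table of 20633 transcripts, in which each of them had 1 row, and all 6 passed the filter of at least 10 reads in at least 3 libraries, as did 16940 transcripts in all. GATA factors bind the DNA letters GATA through a pair of zinc fingers. GATA1, GATA2 and GATA3 are best known from blood, GATA1 for red cells and platelets, GATA2 for blood stem and progenitor cells and GATA3 for T cells and trophoblast. GATA4, GATA5 and GATA6 act in the heart and in endoderm, and GATA6 and GATA4 mark the primitive endoderm, the lineage that separates from the pluripotent cells of the early embryo. PRC1 places ubiquitin on histone H2A through RING1A or RING1B, and developmental regulators are its classical targets in ESCs.

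Both lines are E14 ESCs that carry Rosa26::ERT2-Cre, and each is 1 clone (B9 and 41). PRC1CKO cells have the genotype Ring1a-/-; Ring1bfl/fl, so that 4-hydroxytamoxifen (OHT) removes RING1B from cells that already lack RING1A. In PRC1CPM cells *Ring1a* carries I50A/D53K throughout, and OHT switches both floxed copies of *Ring1b* from wild type to I53A/D56K, which leaves catalytically inactive PRC1. Cells of either line were left untreated or kept in 800 nM OHT for 72 h, with 3 biological replicates in each of the 4 conditions and 12 libraries in all. The untreated lines therefore already differ in their *Ring1a* allele, and untreated cells received no OHT, so that the effect of the drug itself cannot be told apart from that of the recombination.

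Total RNA without rRNA was sequenced together with RNA of *Drosophila* SG4 cells that had been mixed in by cell number. The values are normalised read counts, that is, reads over the whole gene body, introns included, divided by 1 spike-in size factor for each library. The libraries held between 14668159 and 27016156 reads on genes. In bulk RNA, more cells that express a gene and more RNA of the gene per cell cannot be told apart. The cells carried ESC markers in every condition. *Sox2*, a core pluripotency factor, had a mean normalised read count of 7151 in untreated and 3825 in OHT-treated PRC1CKO cells, and 6223 and 4570 in the corresponding PRC1CPM cells. The genes of the catalytic subunits, *Ring1* (RING1A, 92 to 311 reads per library) and *Rnf2* (RING1B, 1164 to 1866 reads), were not called changed by OHT in either line, and a count over the gene body is a weak test of deletions and substitutions within a gene.

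*Gata1* (NM_008089) lies on the minus strand of chromosome X at 7959260 to 7967910 (GRCm38). *Gata2* (NM_008090) lies on the plus strand of chromosome 6 at 88198664 to 88207032, *Gata3* (NM_008091) on the minus strand of chromosome 2 at 9857078 to 9878600, and *Gata4* (NM_008092) on the minus strand of chromosome 14 at 63198915 to 63245260. *Gata5* (NM_008093) lies on the minus strand of chromosome 2 at 180325088 to 180334679. Exons make up 7.35% of the counted body of *Gata4* and 9.64% of that of *Gata6*, but 38.8% of *Gata2*, 34.4% of *Gata5*, 22.0% of *Gata1* and 14.9% of *Gata3*. Introns thus hold most of the bases over which every member was counted. The counted body of *Gata1* lies wholly within the long non-coding gene *Gm39488* of the other strand, and 1823 bases (19.0%) of *Gata5* overlap *Gata5os*, also on the other strand. Whether the counting used strand is not given in the sources used here, so reads of these pairs may not be separated. *Gata5os* itself held 0 to 8 reads per library.

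Promoter sequences of RefSeq (GRCm38.p6) were at hand for 4 of the 6 genes. CpG dinucleotides are marked because Polycomb targets in ESCs are known for CpG-rich promoters. In the 300 bases around the start (250 before and 50 after), the promoter of *Gata1* held 4 CpGs, more than 31.4% of 32851 RefSeq promoters, whose median is 7. That of *Gata2* held 29 at the start used in the table (more than 87.1% of promoters), that of *Gata5* 26 (83.1%) and that of *Gata3* 22 (76.9%). A second start of *Gata2* upstream, outside the counted body, held 32 (90.5%). The letters GATA or TATC, the same motif on the other strand, occurred once in the windows of *Gata1* and *Gata3* and in neither of the windows of *Gata2* nor in that of *Gata5*, and 57.9% of all promoters hold them. The 250 bases before each start, chrX:7967911-7968160 (minus strand) for *Gata1*, chr6:88198414-88198663 (plus strand) for *Gata2*, chr2:9878601-9878850 (minus strand) for *Gata3* and chr2:180334680-180334929 (minus strand) for *Gata5*, read 5′ to 3′ as follows, with each CpG in capitals.
Gata1: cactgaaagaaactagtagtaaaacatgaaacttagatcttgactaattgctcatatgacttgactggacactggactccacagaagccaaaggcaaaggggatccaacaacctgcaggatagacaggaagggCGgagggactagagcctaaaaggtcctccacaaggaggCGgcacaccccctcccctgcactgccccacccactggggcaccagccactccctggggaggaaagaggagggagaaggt
Gata2: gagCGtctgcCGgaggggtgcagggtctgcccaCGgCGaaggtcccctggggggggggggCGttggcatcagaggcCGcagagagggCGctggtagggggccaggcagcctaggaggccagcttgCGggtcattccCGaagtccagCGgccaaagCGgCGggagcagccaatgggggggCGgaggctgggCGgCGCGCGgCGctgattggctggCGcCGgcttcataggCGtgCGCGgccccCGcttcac
Gata3: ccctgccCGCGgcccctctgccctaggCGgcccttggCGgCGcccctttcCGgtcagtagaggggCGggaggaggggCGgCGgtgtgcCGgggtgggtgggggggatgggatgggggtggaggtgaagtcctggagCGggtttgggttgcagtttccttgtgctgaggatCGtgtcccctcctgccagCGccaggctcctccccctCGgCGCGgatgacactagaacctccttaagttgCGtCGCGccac
Gata5: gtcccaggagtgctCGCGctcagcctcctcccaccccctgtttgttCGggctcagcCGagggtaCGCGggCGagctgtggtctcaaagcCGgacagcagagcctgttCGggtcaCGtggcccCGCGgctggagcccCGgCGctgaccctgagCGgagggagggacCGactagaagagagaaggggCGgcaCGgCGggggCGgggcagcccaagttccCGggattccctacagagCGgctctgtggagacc
*Gata1* has 2 capital pairs in this stretch, against 24 in *Gata2*, 19 in *Gata3* and 22 in *Gata5*.

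In untreated cells the GATA genes were expressed at low to moderate levels. Per kb of gene body, *Gata2* stood highest in both lines, at 9.43 ± 3.20 normalised reads per kb (SD, n = 3) in PRC1CKO and 18.2 ± 5.83 in PRC1CPM cells, which is above 47.7% and 56.7% of all transcripts in the table. In untreated PRC1CKO cells *Gata6* (4.72 ± 2.86), *Gata4* (3.54 ± 1.83), *Gata1* (2.31 ± 0.764), *Gata5* (1.29 ± 0.505) and *Gata3* (1.24 ± 0.632) followed, and every gene in this order overlapped the next. In untreated PRC1CPM cells *Gata4* (2.66 ± 0.158) lay below *Gata2* and above *Gata6* (1.99 ± 0.339) without overlap. *Gata6*, *Gata3* (1.92 ± 1.44) and *Gata1* (1.91 ± 1.01) overlapped each other, and *Gata5* (0.811 ± 0.0325) was lowest in all 3 libraries. The order depends on the length that divides the counts. Exons make up 38.8% of the counted body of *Gata2*, but 9.64% of *Gata6* and 7.35% of *Gata4*. Undivided means of *Gata2*, *Gata6* and *Gata4* were 78.9, 156 and 164 in untreated PRC1CKO cells. In untreated PRC1CPM cells they were 152, 65.8 and 123.

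After OHT treatment the order of levels per kb changed. In PRC1CKO cells *Gata6* became the highest member at 33.3 ± 7.01 normalised reads per kb, above 68.4% of all transcripts, followed by *Gata2* (24.6 ± 2.05), *Gata4* (14.5 ± 2.49), *Gata3* (11.4 ± 2.19), *Gata5* (4.93 ± 1.39) and *Gata1* (1.86 ± 0.882). Only *Gata4* and *Gata3* overlapped among neighbours in this order. In OHT-treated PRC1CPM cells *Gata2* (29.9 ± 7.68) remained above all others. *Gata6* (9.89 ± 3.12), *Gata4* (8.38 ± 1.67), *Gata3* (6.95 ± 2.61) and *Gata5* (5.14 ± 0.740) each overlapped the next, and *Gata1* (2.91 ± 1.06) lay below *Gata5* in all libraries. Not divided by length, *Gata6* (1102) also had the highest mean in OHT-treated PRC1CKO cells. In OHT-treated PRC1CPM cells the undivided mean of *Gata2* (250) was below those of *Gata6* (328) and *Gata4* (388).

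**Figure D1:**
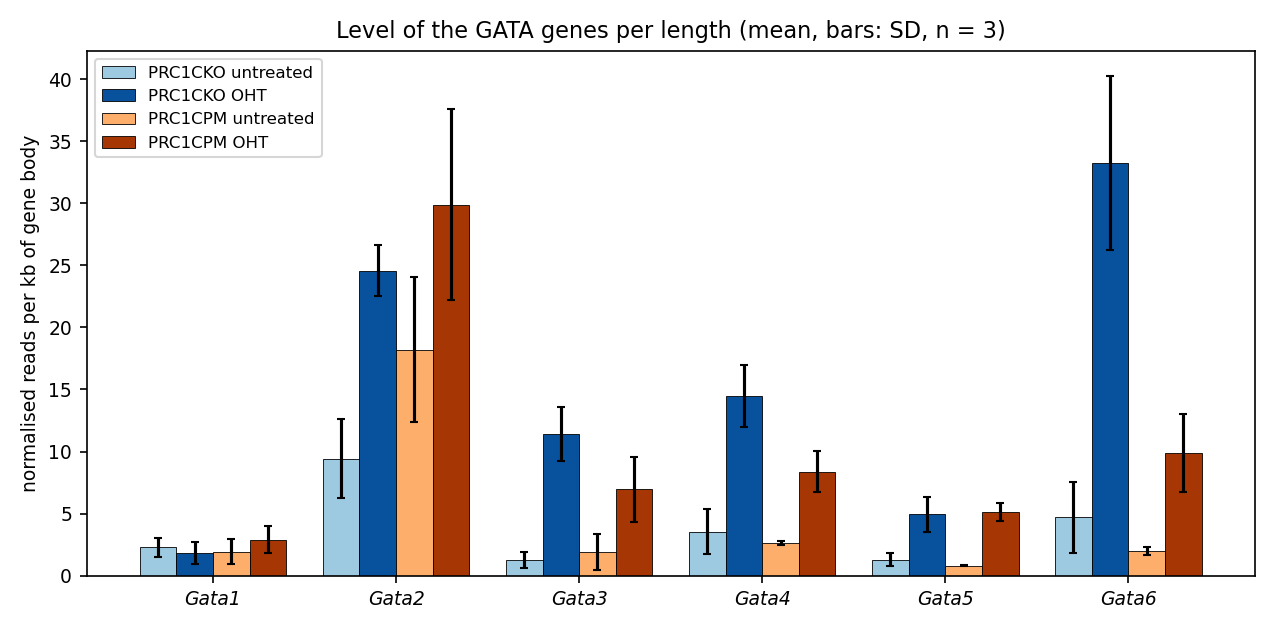
Levels of the 6 GATA genes in normalised reads per kb of gene body (y axis) in the 4 conditions (bar colours), as the mean with its SD over 3 libraries. *Gata6* reached 33.3 in OHT-treated PRC1CKO and 9.89 in OHT-treated PRC1CPM cells, whereas *Gata1* stayed between 1.86 and 2.91.

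In PRC1CKO cells 5 of the 6 GATA genes were higher once PRC1 had been removed. In this line *Gata2*, *Gata3*, *Gata4*, *Gata5* and *Gata6* rose after OHT treatment (limma, Benjamini-Hochberg adjusted p under 0.05 over all transcripts tested and a fold change above 1.5), where 16.5% of all transcripts tested were called higher and 3.09% lower. The same 5 genes were higher in every OHT-treated than in every untreated PRC1CKO library, a separation found for 22.1% of transcripts in the higher and 8.52% in the lower direction. The median log2 fold change of the 6 genes was 2.02, against 0.12 for all transcripts tested. All 5 calls held in each of the 22 alternative analyses.

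Among the factors of the endoderm and heart, *Gata6* (NM_010258, plus strand of chromosome 18 at 11052510 to 11085635) drives primitive endoderm formation. It had normalised read counts of 262, 128 and 79.5 in the untreated and 1361, 1029 and 914 in the OHT-treated PRC1CKO libraries (replicates 1 to 3). Its log2 fold change was 2.96 (SE 0.32, limma adjusted p = 1.2e-10), a 7.78-fold increase with a 95% interval from 5.00 to 12.1. *Gata4*, its partner in endoderm and a regulator of heart development, had 255, 151 and 87.1 in untreated and 791, 561 and 659 in OHT-treated cells. The log2 fold change of *Gata4* was 2.14 (SE 0.30, limma adjusted p = 8.3e-08), or 4.41-fold (2.92 to 6.67). *Gata5*, known from the endocardium and outflow tract of the heart, had the lowest mean normalised read counts of the responding genes. Its values were 14.9, 15.4 and 6.76 before and 36.2, 62.0 and 43.6 after OHT. Per kb, the untreated mean of *Gata3* (1.24) was slightly below that of *Gata5* (1.29). *Gata5* rose by 1.90 on the log2 scale (SE 0.47, limma adjusted p = 0.0019), and 8 to 20 reads per library lay behind its untreated values.

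Among the factors known from blood, *Gata3* changed most in PRC1CKO cells. It had 41.7, 23.1 and 15.2 in the untreated and 300.1, 218 and 219.8 in the OHT-treated libraries, a log2 fold change of 3.26 (SE 0.40, limma adjusted p = 5.4e-09) and a 9.55-fold increase (5.45 to 16.8). *Gata2* had 101, 49.3 and 86.3 before and 209.7, 220.3 and 187 after OHT. It rose less, by 1.43 on the log2 scale (SE 0.32, limma adjusted p = 0.00042), or 2.69-fold (1.73 to 4.18). *Gata1*, the erythroid factor, had 23.8, 12.3 and 23.7 before and 19.0, 7.40 and 21.8 after OHT, and the 2 conditions overlapped. Its log2 fold change of -0.36 (SE 0.53, limma adjusted p = 0.745) did not pass the test. The 95% interval of *Gata1*, from -1.42 to 0.69, leaves room for a change of over 1.5-fold either way at 8 to 28 reads per library.

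**Figure D2:**
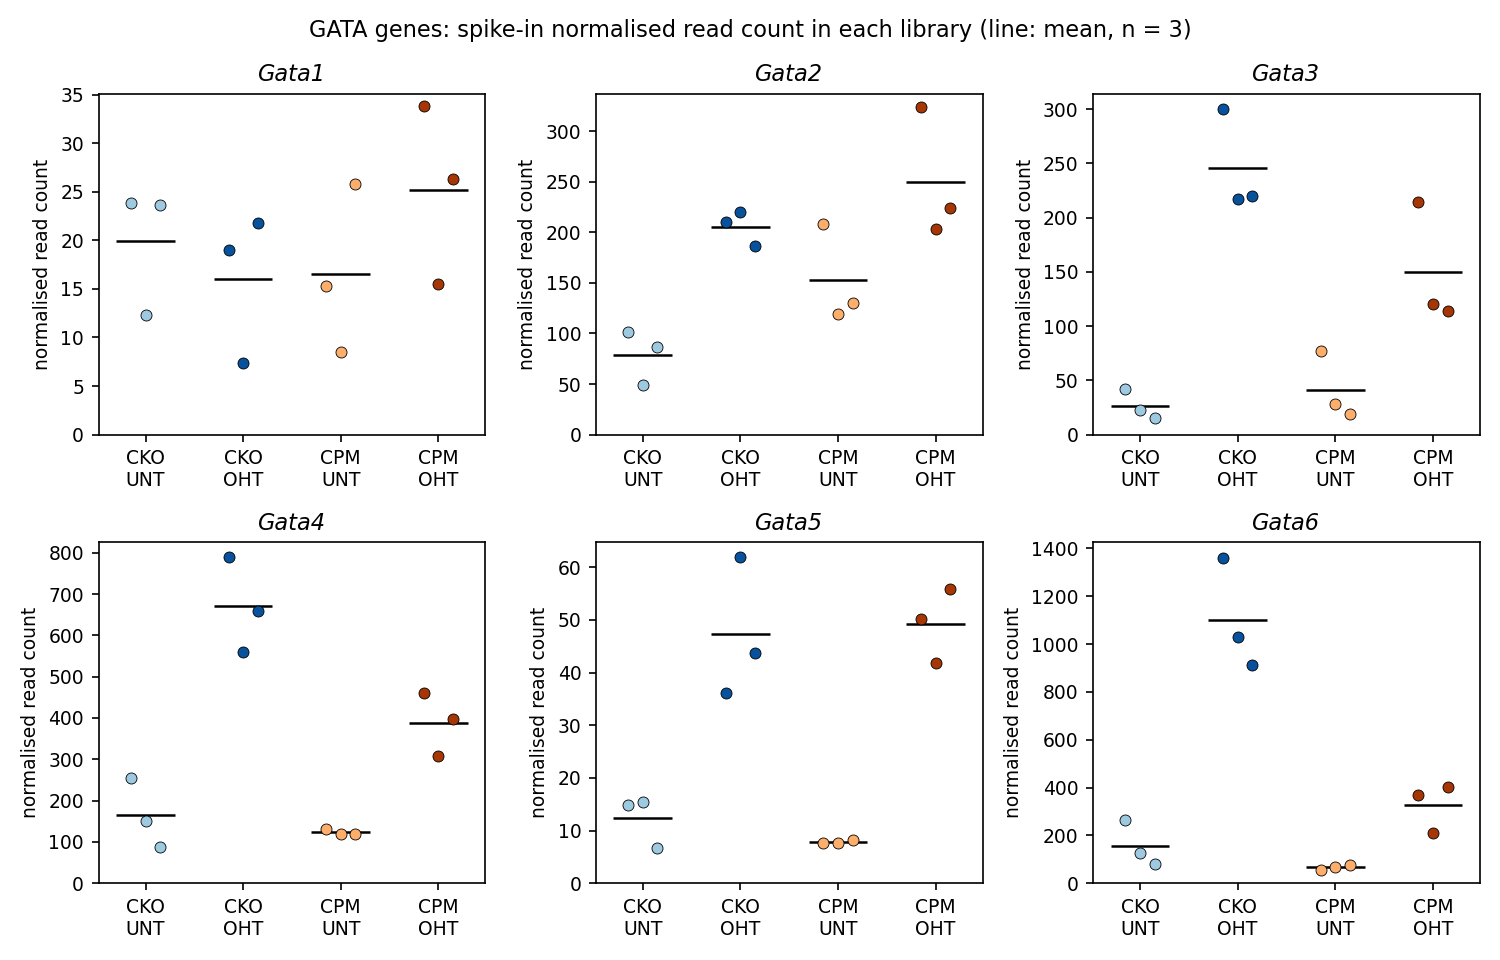
Normalised read count (y axis, from 0, with a scale of its own for each gene) of the 6 GATA genes in each of the 12 libraries. Points are libraries, placed by replicate number from left to right within a condition, and lines are means of 3. The OHT-treated PRC1CKO points of *Gata2* to *Gata6* all lie above the untreated ones, whereas those of *Gata1* overlap.

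With PRC1 made catalytically inactive rather than removed, 4 of the 6 were called higher. In PRC1CPM cells *Gata3*, *Gata4*, *Gata5* and *Gata6* rose after OHT treatment, with 13.1% of all transcripts tested called higher and 1.4% lower. These 4 genes did not overlap between untreated and OHT-treated PRC1CPM libraries, as was so for 18.7% of transcripts with higher and 3.7% with lower values after OHT. The median log2 fold change of the 6 genes was 1.82, against 0.10 for all transcripts. All 4 calls held in each of the 22 alternatives.

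*Gata6* had normalised read counts of 53.7, 67.9 and 75.9 in untreated and 369, 210.3 and 404 in OHT-treated PRC1CPM libraries. Its log2 fold change was 2.26 (SE 0.32, limma adjusted p = 2.9e-07), or 4.78-fold (95% interval 3.07 to 7.45). *Gata4* had 132, 119 and 119 before and 461, 307 and 397 after OHT and rose by 1.63 on the log2 scale (SE 0.30, limma adjusted p = 4.0e-05). The untreated values of *Gata4* differed little among themselves, unlike those in PRC1CKO cells, where the first replicate was the highest. That PRC1CKO library was high beyond *Gata4*. Its summed normalised read count of the ESC markers was 100202, against 66240 and 74989 in replicates 2 and 3. Without it, the median log2 fold change of all transcripts in PRC1CKO cells moved from 0.12 to 0.29. In PRC1CPM cells *Gata5* had 7.67, 7.54 and 8.13 before and 50.2, 41.8 and 55.9 after OHT. Its log2 fold change of 2.51 (SE 0.47, limma adjusted p = 7.2e-05) rests on 6 to 8 reads in each untreated library.

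*Gata3* had 76.7, 28.3 and 19.0 in untreated and 214, 121 and 114 in OHT-treated PRC1CPM libraries, a log2 fold change of 2.02 (SE 0.40, limma adjusted p = 0.00016) and a 4.05-fold difference (2.31 to 7.10). The first replicate was the highest in both conditions. *Gata2* had 208, 119 and 130 before and 323, 203 and 223 after OHT, so that the highest untreated library lay above the lowest treated one, although the count was higher after OHT in 3 of 3 pairs of libraries with the same replicate number. Its log2 fold change of 0.73 (SE 0.32, limma adjusted p = 0.133) did not pass the test. It passed with the replicate number as a block (SE 0.21, limma adjusted p = 0.0030), where 17.9% of all transcripts were called higher and 2.72% lower, and when untreated replicate 1 was left out (log2 fold change 0.97, limma adjusted p = 0.041). *Gata1* had 15.3, 8.48 and 25.8 before and 33.8, 15.5 and 26.3 after OHT. The conditions overlapped, and the log2 fold change of *Gata1* was 0.64 (SE 0.53, limma adjusted p = 0.585, 95% interval -0.42 to 1.70).

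**Figure D3:**
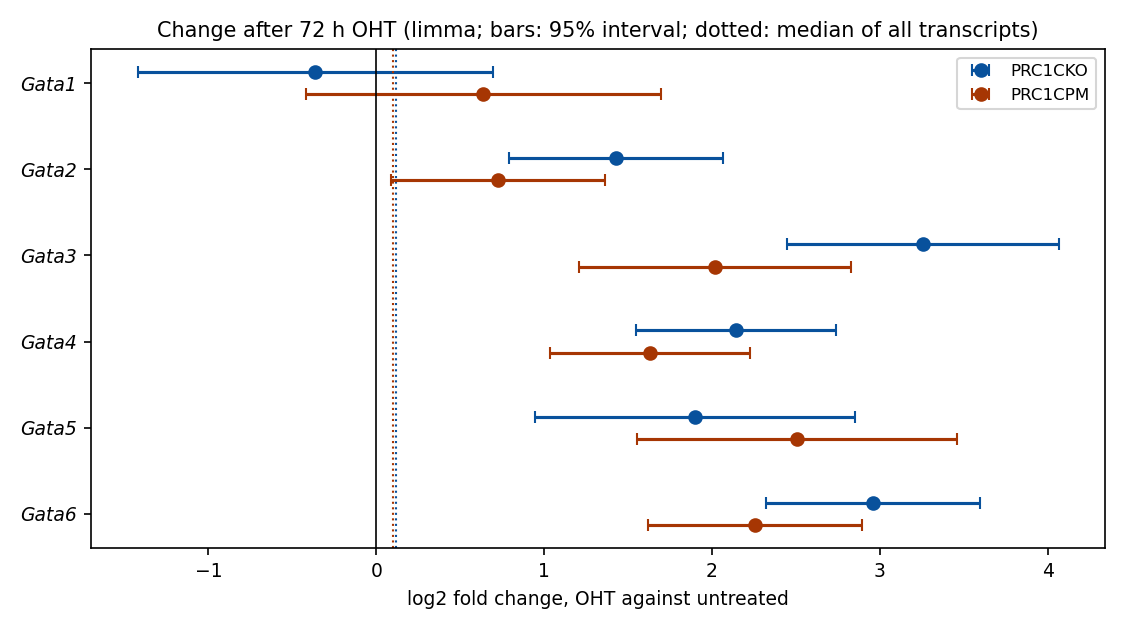
Log2 fold change after OHT treatment (x axis) of the 6 GATA genes in PRC1CKO (blue) and PRC1CPM (brown) cells. Points are limma estimates, bars their 95% intervals and dotted lines the medians of all transcripts tested (0.12 and 0.10). *Gata3* to *Gata6* lie well to the right of 0 in both lines, and the intervals of *Gata1* include 0 in both.

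The levels of the 2 lines after OHT treatment were then compared directly, which is not a comparison of their responses. Between the OHT-treated lines, *Gata6* was the member called different by limma. Its normalised read count was 914 to 1361 in PRC1CKO and 210.3 to 404 in PRC1CPM libraries, a log2 difference of -1.78 (SE 0.32, limma adjusted p = 0.00039) and a level in PRC1CPM cells of 0.291 of that in PRC1CKO cells (95% interval 0.187 to 0.453). Of all transcripts tested, 0.218% were called lower and 1.25% higher in PRC1CPM cells. *Gata6* was also called in each of the 21 alternatives.

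*Gata3* and *Gata4* were likewise lower in every OHT-treated PRC1CPM library than in every OHT-treated PRC1CKO library, as were 4.35% of transcripts (11.9% were higher in every library), but neither passed the test. The log2 difference was -0.76 for *Gata3* (SE 0.40, limma adjusted p = 0.505) and -0.79 for *Gata4* (SE 0.30, limma adjusted p = 0.212). With the replicate number as a block, both passed (limma adjusted p = 0.035 for *Gata3* and 0.00037 for *Gata4*), in a fit that called 1.37% of all transcripts lower and 6.68% higher. *Gata2* (log2 difference 0.26, 95% interval -0.38 to 0.89), *Gata5* (0.084, -0.87 to 1.04) and *Gata1* (0.68, -0.38 to 1.73) overlapped between the OHT-treated lines and were not called by limma.

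The untreated lines were not alike in these genes. *Gata6* was lower in every untreated PRC1CPM library (53.7 to 75.9) than in every untreated PRC1CKO library (79.5 to 262), with a log2 difference of -1.08 (SE 0.32) that narrowly missed the threshold (limma adjusted p = 0.0502). With 1 library left out at a time, this difference ranged from -1.48 to -0.62. The smallest, -0.62, was without untreated PRC1CKO replicate 1 (limma adjusted p = 0.193). *Gata2* was higher in every untreated PRC1CPM library (119 to 208) than in every untreated PRC1CKO library (49.3 to 101), with a log2 difference of 0.96 (SE 0.32, limma adjusted p = 0.089). Such separations were found for 2.55% of transcripts in the lower and 9.23% in the higher direction. Limma thus called 0 of the 6 genes, of which 2 had an unadjusted p under 0.05, while edgeR and DESeq2 each called 1, *Gata6* (adjusted p = 0.021 and 0.022). With the replicate block both passed, at a limma adjusted p of 4.5e-07 for *Gata6* and 0.00012 for *Gata2*, where 1.49% of all transcripts were called lower and 9.63% higher. Limma without the block called 0.478% lower and 2.21% higher.

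Chromosome 6, which carries *Gata2*, stood somewhat higher in PRC1CPM cells as a whole. The median log2 difference of its 852 transcripts was 0.31 in untreated and 0.30 in OHT-treated cells, against 0.12 and 0.10 for all transcripts. *Rpn1*, the nearest gene to *Gata2* on one side, 93359 bases away, was called higher in untreated PRC1CPM cells (log2 difference 0.80, SE 0.20, limma adjusted p = 0.019). Its part in the difference of *Gata2* was not tested.

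**Figure D4:**
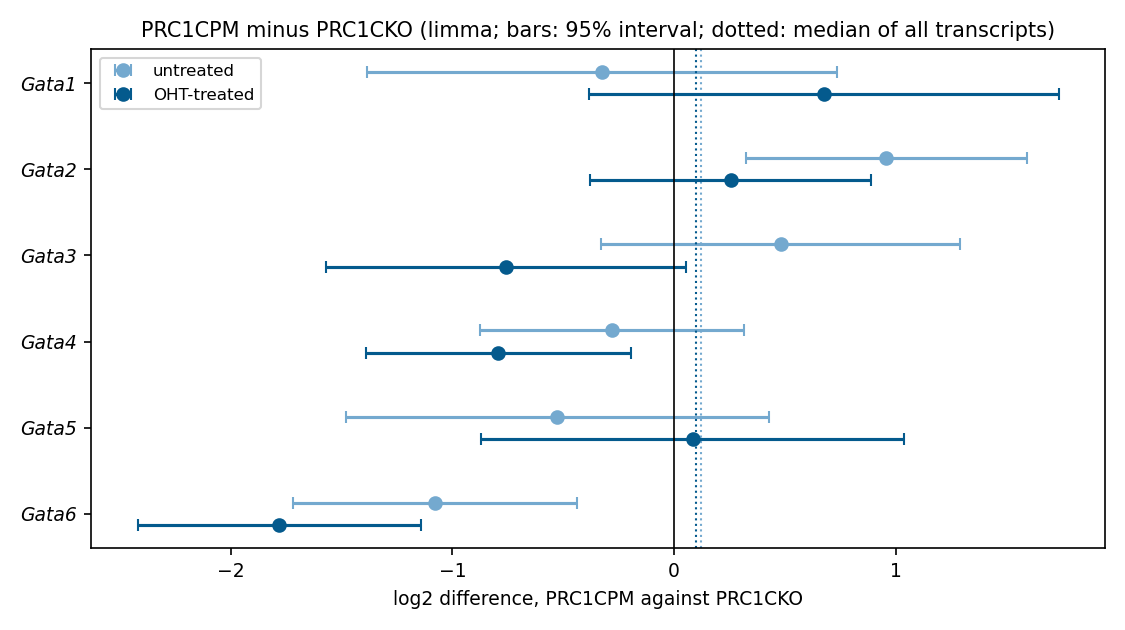
Log2 difference between PRC1CPM and PRC1CKO cells (x axis, negative where PRC1CPM is lower) for the 6 GATA genes in untreated (light) and OHT-treated (dark) cells. Points are limma estimates, bars 95% intervals and dotted lines the medians of all transcripts (0.12 and 0.10). *Gata6* lies below 0 in both states, at -1.08 and -1.78.

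Whether OHT changed a gene more in one line than in the other was tested by the interaction of line and treatment, which takes the untreated difference into account. The interaction (change in PRC1CPM minus change in PRC1CKO, log2) was -1.24 for *Gata3* (SE 0.57), -0.70 for *Gata6* (SE 0.45), -0.70 for *Gata2* (SE 0.45), -0.51 for *Gata4* (SE 0.42), 0.61 for *Gata5* (SE 0.67) and 1.00 for *Gata1* (SE 0.75). None of the 6 was called by limma, edgeR or DESeq2, and 1 of them, *Gata3*, had an unadjusted p under 0.05 with each tool (limma unadjusted p = 0.035, adjusted p = 1.00). Over all transcripts tested, limma called 0.0236% with a lower and 0% with a higher change in PRC1CPM cells. For *Gata6*, the 95% interval was -1.61 to 0.20. It was -1.22 to -0.19 with the replicate block (limma unadjusted p = 0.0077, adjusted p = 0.197), -1.98 to -0.34 without untreated PRC1CKO replicate 1 (adjusted p = 0.369) and -1.68 to -0.0045 without untreated PRC1CPM replicate 1 (adjusted p = 1.00). These 3 intervals lie below 0, but the interaction of *Gata6* was not called in any fit. Other fits gave values nearer 0 than the main one. They were -0.53 with edgeR, -0.52 with DESeq2 and -0.26 without the gDNA correction (95% interval -1.16 to 0.65). With 1 library left out at a time, the value ranged from -1.16 to -0.30. The interval of *Gata3* lay below 0 both without the block (-2.385 to -0.093) and with it (-1.975 to -0.503, limma adjusted p = 0.05003). With the block, those of *Gata2* (-1.286 to -0.120) and *Gata4* (-1.016 to -0.0088) also lay below 0, and neither gene was called. The blocked intervals of *Gata1* and *Gata5* included 0. In the interaction the block also pairs the PRC1CKO libraries by number, which was not done for the OHT change in that line.

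The 6 genes did not follow each other to the same degree across the 12 libraries. Pearson's r of the log2 values, which the shared change after OHT and the shared library scales both raise, was 0.965 for *Gata4* and *Gata6*, 0.931 for *Gata3* and *Gata4* and 0.910 for *Gata4* and *Gata5*. It was 0.487 for *Gata2* and *Gata6* and 0.033 to 0.207 for *Gata1* with the others. Among 15791 other genes, those most like *Gata6* were *Pdgfra*, a receptor of the primitive endoderm (r = 0.969), *Fabp5* (0.968) and *Gata4* itself (0.965). Among those most like *Gata4* were *Ebf1* (0.987) and *Cachd1* (0.986), and most like *Gata3* were *Ndn* (0.992), *A230077H06Rik* (0.990) and *Col11a1* (0.988). *Pdzd7* (0.980), *Scml4* (0.979) and *Inafm2* (0.978) were most like *Gata2*, and *Gjb6* (0.970), *Ccnb3* (0.967) and *Slc44a5* (0.966) most like *Gata5*. For *Gata1*, the nearest were *1700001O22Rik* (0.924), *Cdca7l* (0.878) and *Rell2* (0.861), none of which changed by more than 0.55 on the log2 scale in either line.

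Genes beside the GATA genes gave mixed values. *4930412O13Rik*, a non-coding gene that starts 2645 bases from *Gata3* on the other strand, rose in PRC1CKO cells (log2 fold change 3.18, SE 0.60, limma adjusted p = 4.4e-05), from 2.58 to 32.6 in mean normalised read count. Its log2 fold change in PRC1CPM cells was 1.09 (SE 0.60, limma adjusted p = 0.300). *1010001N08Rik*, which overlaps the start of *Gata6* by 58 bases on the other strand, rose in PRC1CPM cells (2.05, SE 0.65, limma adjusted p = 0.023) and had a log2 fold change of 1.61 (limma adjusted p = 0.078) in PRC1CKO cells. It was lower in untreated PRC1CPM cells (log2 difference -2.27, limma adjusted p = 0.042), as were the values of *Gata6*. *Neil2*, a DNA repair gene 5389 bases from *Gata4*, fell in PRC1CKO cells (-1.08, SE 0.25, limma adjusted p = 0.00093). *Glod5*, 36290 bases from *Gata1*, fell in both lines (-2.28 and -1.48, limma adjusted p = 0.00013 and 0.021). *Hdac6*, on the other side of *Gata1*, *Rbbp8nl* beside *Gata5* and *Rbbp8* beside *Gata6* were not called in either line, and *Dnajb8*, *1700061F12Rik*, *Blk* and *Gata5os* had too few reads to be tested.

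Genes of proteins that act with GATA factors were counted in the same way. Of 13 cofactor genes, 8 rose and 1 fell in PRC1CKO cells and 9 rose in PRC1CPM cells, with medians of 0.86 and 0.74 on the log2 scale. For this list and those below, the shares over all transcripts tested were 16.5% higher and 3.09% lower in PRC1CKO cells. In PRC1CPM cells they were 13.1% and 1.4%. *Tal1* (3.37 in PRC1CKO and 2.01 in PRC1CPM cells) and *Lmo2* (2.49 and 2.22), which join GATA1 or GATA2 in a complex on the DNA of blood genes, rose in both lines, as did *Lmo1* (2.34 and 2.05) and *Runx1* (1.43 and 1.02). *Ldb1*, the scaffold of that complex, fell in PRC1CKO cells (-0.69, limma adjusted p = 0.013), a call lost without untreated replicate 1 or OHT-treated replicate 3. *Tcf3*, a partner of TAL1, and *Spi1*, which opposes GATA1, were called in neither line. The count of higher cofactors was 4 without untreated PRC1CKO replicate 3 and 5 without OHT-treated PRC1CKO replicate 1. In PRC1CPM cells it was 3 without untreated replicate 3, 3 without OHT-treated replicate 1 and 4 with no filter on low counts.

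Other genes with a GATA-type zinc finger, which are not GATA factors, had small values. Of 9 such genes tested, limma, edgeR and DESeq2 called 0 in either line, and 0 had an unadjusted p under 0.05 with any of the 3 tools. Their median log2 fold changes were -0.032 in PRC1CKO and 0.0085 in PRC1CPM cells. *Rere* (0.16 and 0.044) and *Gatad2a* (0.27 and 0.29), a subunit of the NuRD remodelling complex, had the highest normalised read counts of them. This order is by the mean over the 12 libraries and is not divided by gene length. In untreated cells the summed normalised read counts of these genes were 27660 ± 5312 in PRC1CKO and 27380 ± 2517 in PRC1CPM cells. Those of the 6 GATA factors were 459 ± 212 and 407 ± 76.2, and neither sum is divided by gene length. *Zglp1*, 1 of the 9, was low, with untreated means of 44.6 in PRC1CKO and 71.0 in PRC1CPM cells.

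Genes of the lineages in which GATA factors act were counted next, in lists chosen with earlier results of these data known. Of 17 primitive endoderm genes tested of 20, 9 rose and 1 fell in PRC1CKO cells and 10 rose in PRC1CPM cells. Limma called 0 lower in PRC1CPM cells, where 2 had an unadjusted p under 0.05, while edgeR and the replicate block called 2 and DESeq2 called 1. With 1 library left out, limma called 0 to 2 lower there, with 2 in the fit without untreated PRC1CKO replicate 1. *Foxa2*, an endoderm regulator, rose in both lines (2.79 and 2.87), as did *Cited1* (2.03 and 1.94). *Cubn*, a receptor of the visceral endoderm surface, fell in PRC1CKO cells (-2.83, limma adjusted p = 6.8e-08), from a mean of 931 to 109.5. It was already lower in untreated PRC1CPM cells (238), where its log2 fold change after OHT was -1.05 (limma adjusted p = 0.063). *Pdgfra* rose in both lines (1.74 and 1.49). Its level in OHT-treated PRC1CPM cells was lower than in OHT-treated PRC1CKO cells (log2 difference -1.04, limma adjusted p = 0.046), a call lost with no filter, with a pseudocount of 0.1, without the gDNA correction, and without any 1 of the OHT-treated PRC1CKO libraries or OHT-treated PRC1CPM replicate 2 or 3. Of the genes not called, the laminin genes *Lamc1* and *Lamb1* had the highest mean normalised read counts over the 12 libraries, not divided by gene length. Their log2 fold changes were -0.28 and 0.46 in PRC1CKO cells. *Afp*, *Ttr* and *Apoa1*, products of mature endoderm, held at most 10 reads in any library. The summed level of the list was 47040 ± 14540 in untreated and 62540 ± 5536 in OHT-treated PRC1CKO cells, and 50220 ± 9228 and 56510 ± 12780 in PRC1CPM cells. The count of higher genes in PRC1CKO cells was 5 without untreated replicate 3 of that line.

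Of 14 cardiac genes tested of 15, 8 rose and 1 fell in PRC1CKO cells and 7 rose and 1 fell in PRC1CPM cells. The transcription factors *Tbx20* (4.33 and 2.93) and *Mef2c* (3.06 and 2.27) rose in both lines. *Hand2* had 0 reads in the untreated and 29 to 42 in the OHT-treated PRC1CKO libraries, which makes it at least 31.9-fold higher against a floor of 3 reads over the 3 untreated libraries. *Actc1*, the actin of heart muscle, fell in both lines (-3.33 and -1.58), although the call in PRC1CPM cells was lost with no filter, with a pseudocount of 0.1, without the gDNA correction, and without untreated replicate 1 or 2, any 1 of the OHT-treated PRC1CPM libraries or untreated PRC1CKO replicate 3. *Myl7* and *Myh7*, further contractile genes, were called in neither line. Of 7 trophoblast genes tested, 4 rose and 1 fell in PRC1CKO and 4 rose in PRC1CPM cells, among them *Esx1* (3.60 and 2.30), *Tfap2a* (3.51 and 1.97) and *Eomes* (1.57 and 1.31). The gene that fell was *Tfap2c* (-0.66, limma adjusted p = 0.025), a call lost without untreated PRC1CKO replicate 2 or any 1 of the OHT-treated PRC1CKO libraries. *Cdx2* rose in PRC1CPM cells (1.71), with 1.04 and a limma adjusted p of 0.220 in PRC1CKO cells, and *Ascl2* was called in neither.

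Most genes of mature blood cells had too few reads to be tested. Of 18 haematopoietic and erythroid genes, 16 were in the table and 6 had enough reads to be tested, and 2 of these rose in each line. *Slc4a1*, the anion exchanger of red cells, rose in both (1.10 and 1.27). *Cd34* rose in PRC1CKO cells (1.00), with 0.86 and a limma adjusted p of 0.058 in PRC1CPM cells. *Itga2b* rose in PRC1CPM cells (0.90), with 0.72 and a limma adjusted p of 0.069 in PRC1CKO cells. The count in PRC1CKO cells was 0 without untreated replicate 3, without OHT-treated replicate 2 and without the gDNA correction, 1 without untreated replicate 2, OHT-treated replicate 1 or OHT-treated replicate 3, and 4 without untreated replicate 1. In PRC1CPM cells it was 0 without untreated replicate 3 or OHT-treated replicate 1 and 1 without OHT-treated replicate 3. The globin genes *Hba-x*, *Hbb-y* and *Hbb-bh1*, targets of GATA1 in embryonic red cells, held at most 4 reads in any library. *Kit*, which ESCs also express, was the most abundant of the list and was not called (-0.32 and 0.043). Of 12 T lymphoid genes, 5 were tested. *Zbtb7b* rose (1.01) and *Cd3e* fell (-1.31) in PRC1CKO cells. In PRC1CPM cells they had 0.40 (limma adjusted p = 0.447) and -0.94 (limma adjusted p = 0.085). *Cd8a* rose in PRC1CPM cells (2.02), with 0.90 and a limma adjusted p of 0.221 in PRC1CKO cells. *Tcf7* and *Bcl11b* were called in neither line. They had the highest mean normalised read counts of the 5 over the 12 libraries, not divided by gene length. The call of *Zbtb7b* was lost without untreated PRC1CKO replicate 3 and that of *Cd3e* without OHT-treated PRC1CKO replicate 3. *Il7r* held 0 reads in all 12 libraries.

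Of 9 ESC markers tested, 2 fell in PRC1CKO cells, *Sox2* (-0.89) and *Utf1* (-0.79), and limma, edgeR and DESeq2 called 0 in PRC1CPM cells, where 1 with a lower value had an unadjusted p under 0.05 with each tool and 1 with a higher value with edgeR. Without untreated PRC1CKO replicate 2, 4 markers fell in PRC1CKO cells. Medians were -0.39 and -0.15 on the log2 scale. Of the markers not called, *Tdgf1* and *Esrrb* had the highest mean normalised read counts over the 12 libraries, not divided by gene length. The summed level of the markers was 80480 ± 17630 in untreated and 62080 ± 5031 in OHT-treated PRC1CKO cells. In PRC1CPM cells it was 69130 ± 12280 and 64390 ± 18400. The part of a change in cell types in the rise of the GATA genes was not tested.

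**Figure D5:**
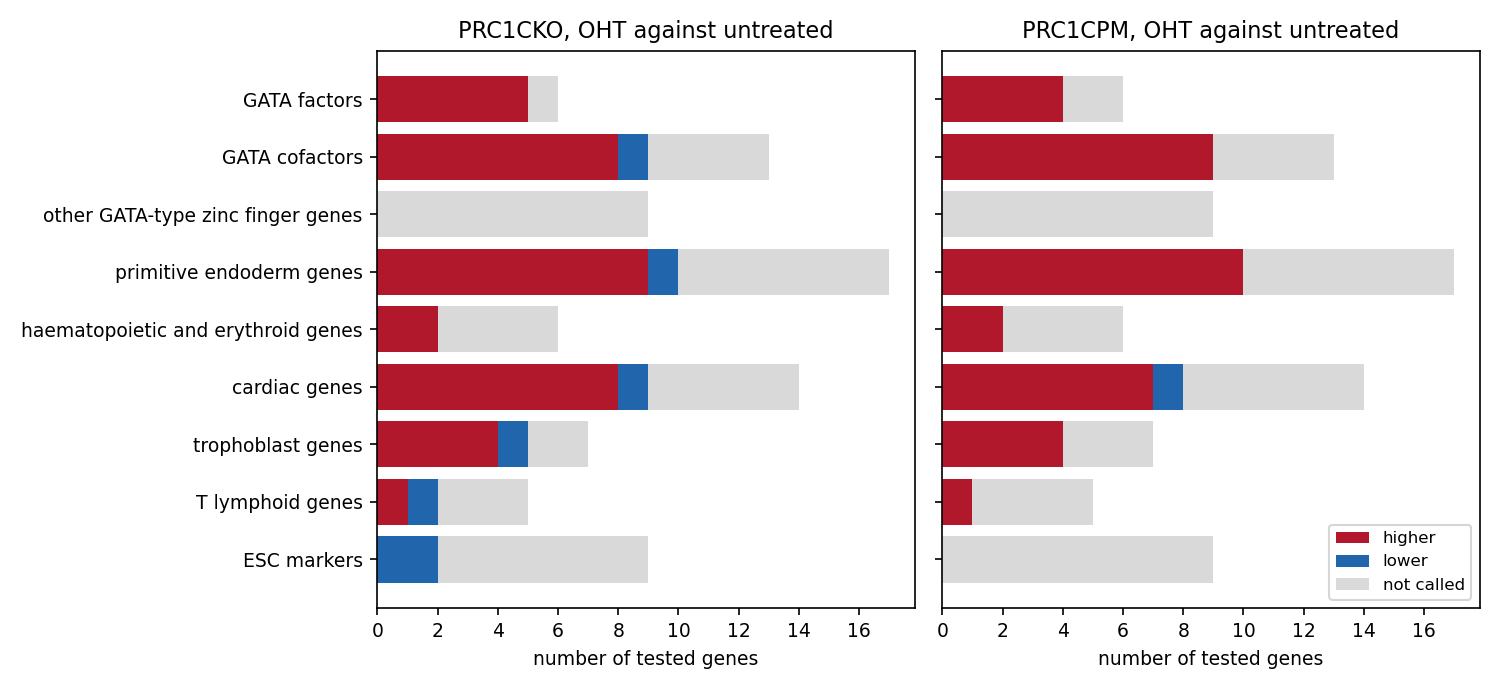
Number of tested genes (x axis) called higher (red), lower (blue) or not called (grey) by limma after OHT treatment in PRC1CKO (left) and PRC1CPM (right) cells, for the 6 GATA factors and 8 other lists. The GATA factors show 5 and 4 higher genes, and the other genes with a GATA-type zinc finger show 0 in both lines. Of all transcripts tested, 16.5% and 13.1% were called higher.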

How the data were processed

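The 12 cRNA-seq libraries were grouped by their titles. The authors aligned reads to mm10 and dm6 with Bowtie 2 and STAR, removed PCR duplicates and counted reads over gene bodies. The authors' deposited table gives a normalised signal, in which reads per gene are divided by 1 spike-in size factor per library, corrected by matched gDNA sequencing. It also holds the authors' log2 fold changes and adjusted p-values, which were not used, like their list of partially derepressed genes. In every library 100% of values were whole reads within a tolerance of 0.02, and these recovered reads served the filter and the count tests. Reads on genes, 14668159 to 27016156 per library, set the counting error.

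Log2(normalised read count + 1) of the 16940 transcripts that reached 10 reads in 3 or more libraries was fitted with limma 3.58.1 (R 4.3.3), with 1 mean per condition over the 12 libraries, no block and a mean-variance trend, and p-values were adjusted by Benjamini-Hochberg. Fold changes are on this scale and are understated for low genes. A call needed a fold change of over 1.5 besides an adjusted p under 0.05, which alone sufficed for the interaction. The fit was also run on simulated data, and the outcome is not given here. Alternatives were edgeR 4.0.16 and DESeq2 1.42.0 on the recovered reads, TMM, the spike-in without the gDNA correction (from the study's read totals), no filter, a pseudocount of 0.1, the replicate block, stricter limits (2-fold, or an adjusted p under 0.01), a fit to the 6 libraries of 1 line, and leaving out 1 library at a time. Those for the other gene lists were added after the values were seen.

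Deviations from the group means correlated in the 18 pairs of libraries with the same replicate number (mean r 0.205). The 36 pairs with different numbers had a mean r of -0.102. Deviations sum to 0 within each condition, so the second mean largely follows from the first and is no separate evidence of pairing. All 3 pairs were over 0.1 in PRC1CPM cells and between the lines in either state, so blocked values are given beside those results where they change a call. In PRC1CKO cells the pairs with the same number had 0.179, 0.099 and 0.148. The numbers were not taken to pair there only because 0.099 narrowly missed 0.1, so pairing in this line is left undecided. The blocked fit does pair the PRC1CKO libraries by number, also in the interaction and between the lines. Blocked and unblocked values therefore treat that line differently. With the block, no call of a GATA gene in PRC1CKO cells changed. The members and gene lists were chosen with earlier results of these data known. Named from each list were up to 4 genes called in either line with the largest change in PRC1CKO cells. Up to 2 uncalled genes with the highest mean normalised read count, not divided by gene length, were named too. So were the nearest gene on each side of each GATA gene and the 3 genes most correlated with it. Of the genes these rules gave, 2 are not reported here. *Ldb1*, *Tfap2c*, and genes with too few reads, were also named after their values were seen. Positions are 1-based on GRCm38 (mm10), with exons from RefSeq. Python 3.11.15 with pandas 2.3.3 and matplotlib 3.10.9 was used for summaries and plots.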

Additional observations from a re-analysis of the deposited data

Results flagged for a closer look

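The values of *Gata1* differed in sign between the lines, although neither change passed the test. Its normalised read count was lower after OHT in 3 of 3 pairs of libraries with the same replicate number in PRC1CKO cells and higher in 3 of 3 in PRC1CPM cells. In PRC1CKO cells the numbers were not taken to pair the libraries, and the log2 fold change there, -0.36, was 0.085 without OHT-treated replicate 2. The interaction was 1.00 on the log2 scale (SE 0.75), which did not pass the test (limma adjusted p = 1.00, and 0.831 with the replicate block), and *Gata1* held 8 to 35 reads per library.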

How the results depend on the processing

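The count of GATA genes changed by OHT was 5 in PRC1CKO cells under every alternative, and in PRC1CPM cells it was 4 or, with TMM, without the gDNA correction, with the replicate block and without untreated PRC1CPM replicate 1, 5. The count that differed between the OHT-treated lines (1) became 2 with TMM and 3 with the replicate block. Between the untreated lines (0) it became 1 with edgeR, 1 with DESeq2, 1 without the gDNA correction, 2 with TMM, 2 with the replicate block and 0 to 2 with each library left out. No interaction was called under any alternative. The replicate block changed no call other than those of *Gata2*, *Gata3*, *Gata4* and *Gata6* given above, and in the interaction of *Gata3* it gave a limma adjusted p just above the threshold. Without the gDNA correction the median log2 fold change of all transcripts moved from 0.12 to -0.037 in PRC1CKO and from 0.10 to 0.39 in PRC1CPM cells, and with TMM to -0.0019 and -0.0072. Relative to the median of all transcripts, the log2 fold change of *Gata6* was 2.85 in PRC1CKO and 2.16 in PRC1CPM cells.

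Of 636 values of single genes under alternatives, 606 kept their direction and side of the threshold, 23 passed it only under the alternative and 7 changed sign, none of them called. The sign changed for *Gata1* in PRC1CKO cells (0.085 without OHT-treated PRC1CKO replicate 2) and between the untreated lines (0.055 without untreated PRC1CPM replicate 2). It changed for *Gata5* between the OHT-treated lines (-0.016 with TMM, -0.087 without OHT-treated PRC1CKO replicate 1 and -0.0097 without OHT-treated PRC1CPM replicate 3). Between the untreated lines it also changed for *Gata3* (-0.080 without untreated PRC1CPM replicate 1) and *Gata4* (0.10 without untreated PRC1CKO replicate 1). With each library left out in turn, these values ranged from -0.66 to 0.085 for *Gata1* in PRC1CKO cells, from -0.087 to 0.29 for *Gata5* between the OHT-treated lines and, between the untreated lines, from -0.69 to 0.055 for *Gata1*, from -0.080 to 0.90 for *Gata3* and from -0.67 to 0.10 for *Gata4*. These signs are not taken relative to the median of all transcripts in the same fit. *Gata1*, *Gata4* and *Gata5* lay below that median in the main fit and in each fit where their sign changed. *Gata3* lay above it in the main fit (0.48 against 0.12). Without untreated PRC1CPM replicate 1 it lay below (-0.080 against -0.00073). The causes were not tested. Few reads lay behind untreated *Gata5*, at 6 to 20 per library, and *Gata1*, at 8 to 35, and the part of counting error in their spread was not tested.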
